A study of Mus musculus with 6 samples.

Results

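The EMT transcription factors are 6 genes, Snai1, Snai2, Zeb1, Zeb2, Twist1 and Tcf4, that are known to drive the epithelial-to-mesenchymal transition (EMT), and their RNA was followed here through the first week of neural induction in mouse embryonic stem cells. The rule takes the genes by symbol, and their probe sets are those that the platform annotation gives to exactly 1 of the 6 symbols. A probe set is a group of short array probes that together report on one transcript region. The 6 genes, of 18194 genes measured, had 19 probe sets of the 45037 tested: 1 for Snai1, 2 for Snai2, 4 for Zeb1, 5 for Zeb2, 1 for Twist1 and 6 for Tcf4.

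RNA of sorted mouse cells was hybridised to 6 Affymetrix 3' expression arrays, with 2 arrays in each of 3 groups. All cells came from 1 line, OLV2-1, in which the fluorescent protein Venus is knocked into the Oct4 (Pou5f1) locus, so that Venus reports on a gene of pluripotent cells. The ESC group holds undifferentiated embryonic stem cells, labelled as the Oct4-Venus+ fraction, for which the sorting protocol also names CD31+ cells. The EpiSC-like group (epiblast stem cell-like) is the Oct4-Venus+/Pecam1- fraction of day 3 SFEBq aggregates. SFEBq is a serum-free floating culture that steers stem cells towards neural fates, and Pecam1 is another name for CD31. The third group, Day7_Oct4-Venus+ (called day 7 cells below), is the Oct4-Venus+ fraction of SFEBq aggregates after 7 days, with no Pecam1 gate named. Trypsin, 1 hour of recovery and an antibody stain preceded the sort of ESC and of day 3 aggregates, while cells of day 7 aggregates were freed with EDTA. The handling and the stage therefore cannot be told apart in comparisons with day 7 cells. Whether the 2 arrays of a group stem from separate cultures is not labelled, and the spread behind every p-value may therefore be technical.

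EMT is the programme by which cells held in a sheet by E-cadherin junctions loosen these contacts and become migratory, as in gastrulation and in neural crest delamination. Snail proteins (Snai1, Snai2) and Zeb proteins (Zeb1, Zeb2) are zinc-finger repressors that bind E-box elements in promoters of epithelial genes such as Cdh1. Twist1 and Tcf4 are basic helix-loop-helix proteins that bind E-boxes as dimers. Tcf4 here is the E protein also called E2-2, not the Wnt effector of the same nickname. Id proteins pair with E proteins but lack a DNA-binding region, and so keep them off DNA. In the early mouse embryo Snai1 acts in the primitive streak, and Zeb2 acts in neural ectoderm and neural crest.

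The letters searched in promoters were CAGGTG and its reverse complement CACCTG, the E-box form typically bound by Snail and Zeb proteins. Windows were the 250 bases before each RefSeq gene start in the mouse build GRCm38.p6, printed 5′ to 3′ on the gene's strand in lower case with the E-box in capitals. The first 3 windows below belong to transcription factors whose RNA is described here, and the fourth to Epcam, an epithelial adhesion gene and a textbook EMT target. The Snai1 window lies at chr2:167537945-167538194 (plus strand), the Zeb2 window at chr2:45117443-45117692 (minus strand), the Twist1 window at chr12:33957421-33957670 (plus strand) and the Epcam window at chr17:87635729-87635978 (plus strand).
Snai1: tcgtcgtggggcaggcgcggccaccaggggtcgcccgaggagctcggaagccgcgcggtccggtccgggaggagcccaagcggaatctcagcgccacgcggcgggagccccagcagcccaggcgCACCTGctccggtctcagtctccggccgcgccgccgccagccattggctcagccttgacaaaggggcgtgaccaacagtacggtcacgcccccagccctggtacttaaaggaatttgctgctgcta
Zeb2: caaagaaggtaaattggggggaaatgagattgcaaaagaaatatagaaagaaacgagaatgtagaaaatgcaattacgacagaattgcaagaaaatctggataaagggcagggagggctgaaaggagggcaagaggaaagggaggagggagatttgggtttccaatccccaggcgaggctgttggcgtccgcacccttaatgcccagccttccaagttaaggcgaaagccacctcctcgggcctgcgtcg
Twist1: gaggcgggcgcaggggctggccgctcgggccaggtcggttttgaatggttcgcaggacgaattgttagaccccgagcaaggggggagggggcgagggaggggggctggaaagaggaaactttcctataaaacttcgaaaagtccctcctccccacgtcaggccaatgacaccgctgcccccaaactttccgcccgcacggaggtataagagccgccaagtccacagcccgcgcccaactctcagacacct
Epcam: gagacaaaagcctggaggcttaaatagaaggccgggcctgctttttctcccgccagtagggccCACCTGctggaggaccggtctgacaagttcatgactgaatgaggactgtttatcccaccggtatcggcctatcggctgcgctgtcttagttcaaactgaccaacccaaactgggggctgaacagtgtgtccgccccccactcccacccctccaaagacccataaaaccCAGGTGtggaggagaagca
The Snai1 window held 1 E-box of this form, starting 126 bases before the gene start (position -126). The Epcam window held 2, starting at positions -187 and -19. The Twist1 window held 0, and so did all 4 Zeb2 windows in the table, of which the first is shown. Among all 32851 windows of this length, 5657 (17.2%) held the letters at least once, and among the 21263 windows of protein-coding genes 3593 (16.9%) did. Of 25 windows for 20 of the 30 listed epithelial junction and identity genes, 15 (60.0%) held it, in 13 of the 20 genes. These matches describe the letters and are not binding sites shown by these data. The windows of Snai2, Zeb1, Tcf4 and Cdh1 were not analysed here.

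On every array the deposited signals had been scaled to a trimmed mean of 500.0. The 2 arrays of a group had log2 signals correlated at 0.976 to 0.978 across genes, each taken by its brightest probe set. The arrays fall into sets that follow their replicate number: the highest signal was 30793 to 36841 on the 3 arrays numbered 1 (array set 1) and 63296 to 66643 on the 3 numbered 2 (array set 2). The mean signal of the hybridisation controls followed these sets too, with 5591 to 7108 in set 1 and 11227 to 13512 in set 2. The poly-A and actin controls did not. The mean signal of the poly-A spike-in controls was 81.3 and 81.8 on the ESC and EpiSC-like arrays of set 2 and 682 to 932 on the other 4 arrays. Signal of the actin controls at the 3' end over that at the 5' end, a measure of RNA quality, came on the log2 scale to 0.71 and 0.94 in day 7 cells, 0.59 and 0.46 in EpiSC-like cells and 0.51 and 0.53 in ESC. The same measure of the Gapdh controls did not set day 7 apart. It came to -0.12 and -0.18 in day 7 cells, -0.04 and -0.36 in EpiSC-like cells and 0.01 and -0.30 in ESC, lower throughout set 2 than in set 1. The part of these controls in the day 7 results was not tested. Differences within each set are given beside the pooled ones. The medians of all probe set signals on the arrays were 63.99 to 76.3, and these serve below as a yardstick for dim probe sets. Pou5f1 had 6244 and 9923 in EpiSC-like cells, 6533 and 9062 in day 7 cells, and 7927 and 14055 in ESC, with overlapping groups. Fgf5, a growth factor gene of the primed epiblast, rose to 1009 and 1243 in EpiSC-like cells, against 26.2 and 25.9 in ESC, a log2 difference of 4.76 ± 0.33 (limma adjusted p = 0.0140). Pecam1, the gated surface marker, had 401 and 177 in EpiSC-like cells and 728 and 343 in ESC, a log2 difference of -0.87 ± 0.51 that did not pass the test (limma adjusted p = 0.480).

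In EpiSC-like cells against ESC, 5 of the 6 genes lay above both ESC arrays on both EpiSC-like arrays, with Snai1 as the exception. Across all genes 25% did so, and 19.9% lay wholly below. Snai2 rose, and it was the single one of the 6 called at a limma adjusted p under 0.05 over 18194 genes. Of all genes 1.90% were called in this comparison, 1.31% as higher and 0.583% as lower. At an unadjusted p under 0.05 stood 4 of the 6, against 16% of all genes. The 6 log2 differences had a median of 1.10, where that of all genes was 0.025. Differences are of log2(signal + 16) throughout, on a scale that understates changes of dim genes, and are given ± the standard error of the fit. In these bulk samples, fewer cells of a type and less RNA per cell cannot be told apart.

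**Figure D1:**
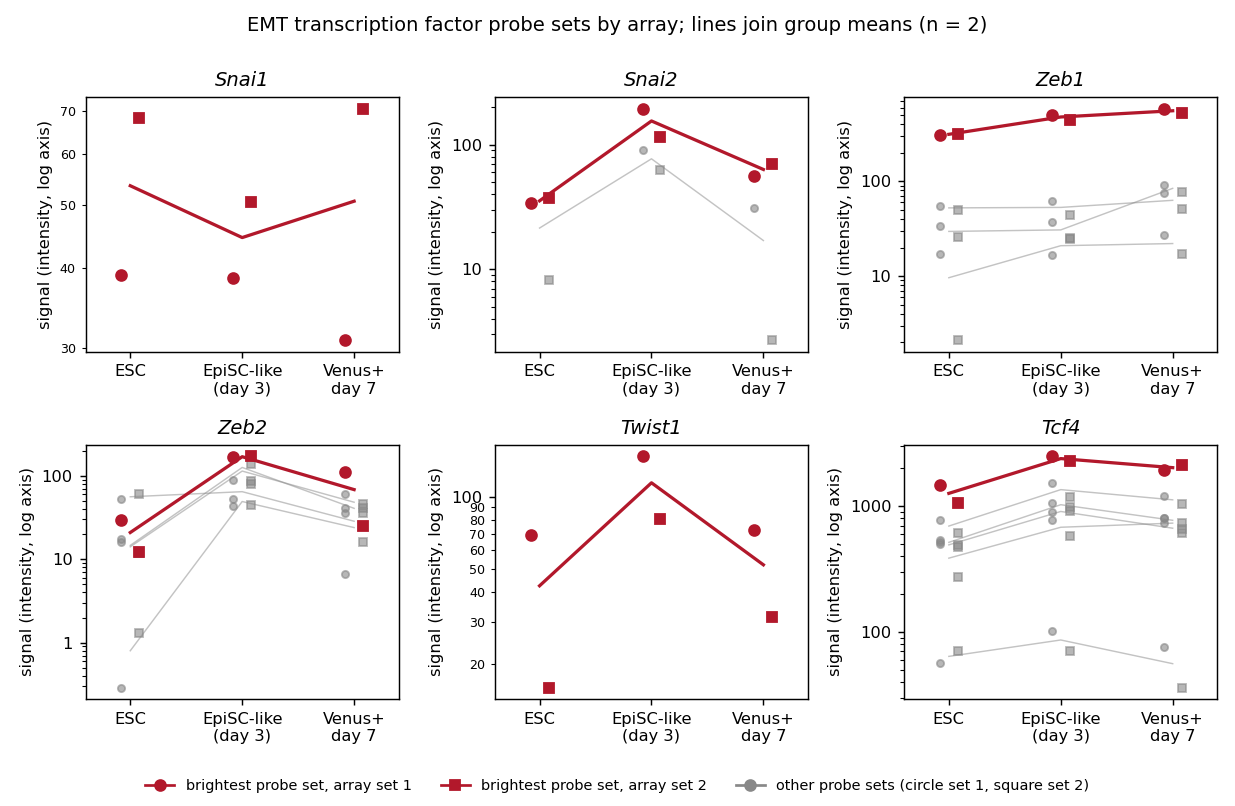
Signal (intensity, log axis) of the 19 probe sets of the 6 EMT transcription factors on each of the 6 arrays, by group. Red marks the brightest probe set of a gene, which stands for the gene, grey its other probe sets; circles are array set 1, squares array set 2, and lines join the means of 2 arrays. For Snai2 and Twist1 the EpiSC-like arrays lie highest in both array sets, Zeb1 is highest on day 7, and the Snai1 groups overlap.

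Snai2 (Slug), a Snail repressor of neural crest and mesenchyme in vertebrate embryos, had signals of 195 and 116 in EpiSC-like cells, against 33.8 and 37.1 in ESC, on its brighter probe set. Both ESC values lay under the median of their array and both EpiSC-like values above it. The difference was 1.70 ± 0.29 (adjusted p = 0.0481), with 2.08 in array set 1 and 1.31 in array set 2. The call was close to the threshold: adjusted p ran from 0.0252 to 0.214 over 16 other settings, and 3 of those kept the call. Leaving out any 1 of the 6 arrays ended it (0.101 to 0.214). The brighter probe set carries the platform's suffix for probes that can match other transcripts. The other, dimmer probe set of Snai2 had 91.2 and 63.0 in EpiSC-like cells, against 34.6 and 8.26 in ESC, a difference of 1.39 ± 0.54 in the fit over 45037 probe sets (adjusted p = 0.379). Both probe sets thus had their 2 EpiSC-like arrays above their 2 ESC arrays. With the mean over both probe sets in place of the brighter one, Snai2 was not called.

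Snai1, the Snail member of the mouse primitive streak, was dim in every group. Its signals were 38.6 and 50.5 in EpiSC-like cells, against 39.0 and 68.1 in ESC, and the groups overlapped. The difference was -0.18 ± 0.37 (adjusted p = 0.884), -0.01 in array set 1 and -0.34 in array set 2. On 6 of 6 arrays Snai1 separated by array set rather than by stage: the arrays of set 2 had 50.5 to 70.5 and those of set 1 had 30.9 to 39.0.

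Zeb2 (Sip1), a Smad-binding zinc-finger repressor, had the largest differences of the 6 genes at day 3. Its brightest probe set had signals of 167 and 171 in EpiSC-like cells, against 29.6 and 12.2 in ESC. The difference was 2.37 ± 0.53 (adjusted p = 0.0896), with 2.01 in array set 1 and 2.73 in array set 2, so it did not pass the test over all genes. With the mean over probe sets in place of the brightest one, the gene passed (adjusted p = 0.0288). Of its 5 probe sets, 4 differed by 1.95 to 2.37, and in each of these the EpiSC-like arrays lay above the ESC arrays. One of them was nearly dark in ESC, with 53.2 and 45.1 in EpiSC-like cells, against 0.29 and 1.31 in ESC. The smallest adjusted p of the 4 in the fit over probe sets was 0.0752. The remaining Zeb2 probe set had 43.4 and 85.5 in EpiSC-like cells, against 52.0 and 60.0 in ESC, with overlapping groups and a difference of 0.11 ± 0.39.

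Zeb1, the paralogue of Zeb2, had 506 and 448 in EpiSC-like cells, against 307 and 319 in ESC, on its brightest probe set. The groups did not overlap, and the difference was 0.58 ± 0.22 (adjusted p = 0.270), with 0.69 in array set 1 and 0.47 in array set 2. Its other 3 probe sets were dim, and their groups overlapped, with differences of 0.00 to 0.58.

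Twist1, a helix-loop-helix regulator of head mesenchyme, had 147 and 80.9 in EpiSC-like cells, against 68.9 and 15.99 in ESC. Array set 1 was the higher of both pairs, and the lower EpiSC-like value stood just above the higher ESC value. The difference was 1.27 ± 0.55 (adjusted p = 0.332), with 0.94 in array set 1 and 1.60 in array set 2.

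Tcf4, the E protein of the 6, was far above the array medians in all groups. It had 2493 and 2281 in EpiSC-like cells, against 1474 and 1052 in ESC, on its brightest probe set. The difference was 0.93 ± 0.26 (adjusted p = 0.145), with 0.75 in array set 1 and 1.10 in array set 2. Its probe sets were alike: 5 of 6 did not overlap between the groups, with differences of 0.83 to 0.97. The sixth, with 102 and 70.5 in EpiSC-like cells, against 56.9 and 71.0 in ESC, overlapped. When only genes at or above the median level were tested, Tcf4 passed (adjusted p = 0.0453).

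**Figure D2:**
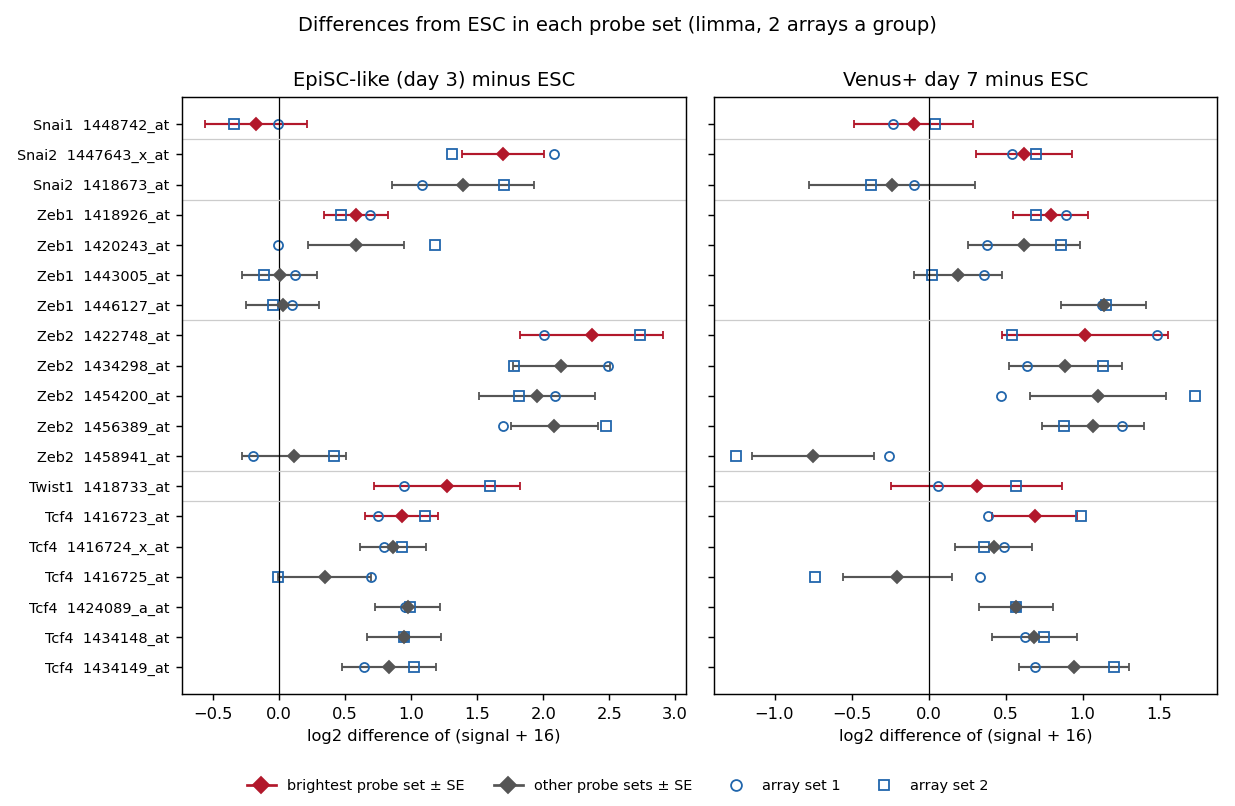
Log2 differences of (signal + 16) from ESC for each of the 19 probe sets, EpiSC-like minus ESC on the left and day 7 minus ESC on the right. Diamonds and bars are the limma estimate ± SE over 2 arrays a group, open circles and squares the difference within array set 1 and array set 2. In the left panel 4 of the 5 Zeb2 probe sets lie between 1.95 and 2.37, and in the right panel they lie between 0.89 and 1.10.

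Counted by probe set, 13 of the 19 lay wholly above ESC at day 3 and 0 wholly below, and 6 overlapped. Over all 45037 probe sets 22.3% lay wholly above and 18.2% wholly below. In the limma fit over probe sets 0 of the 19 were called, where 0.286% of all probe sets were, 0.224% as higher and 0.0622% as lower. At an unadjusted p under 0.05 stood 10 of the 19, against 11.9% of all. Probe sets of one gene share their transcript and are not independent of each other.

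In day 7 cells against ESC, 3 of the 6 genes (Snai2, Zeb1 and Tcf4) lay wholly above ESC and 0 wholly below, where 26.6% and 23.5% of all genes did. This comparison shares its ESC arrays with the previous one. In the limma fit 0 of the 6 were called, where 1.04% of all genes were (0.753% as higher, 0.286% as lower), and 2 of the 6 stood at an unadjusted p under 0.05, against 18.3% of all genes. The median difference of the 6 was 0.66, where that of all genes was 0.015. Zeb1 had 583 and 527 in day 7 cells, against 307 and 319 in ESC, a difference of 0.79 ± 0.22 (adjusted p = 0.143), with 0.89 in array set 1 and 0.70 in array set 2. When only genes at or above the median level were tested, Zeb1 passed (adjusted p = 0.0431). Another probe set of Zeb1 had 91.8 and 76.6 in day 7 cells, against 33.5 and 25.7 in ESC, and 37.0 and 24.4 in EpiSC-like cells. That probe set alone of the 4 stood apart at day 7 and not at day 3, with a difference of 1.14 ± 0.28 from ESC (adjusted p = 0.149 over probe sets).

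Tcf4 had 1933 and 2111 in day 7 cells, against 1474 and 1052 in ESC, and differed by 0.69 ± 0.26 (adjusted p = 0.229), with 0.39 in array set 1 and 0.99 in array set 2. Snai2 had 56.6 and 70.0 in day 7 cells, against 33.8 and 37.1 in ESC, and differed by 0.62 ± 0.29 (adjusted p = 0.326). Its dimmer probe set did not share that direction: it had 31.3 and 2.70 in day 7 cells, against 34.6 and 8.26 in ESC. Zeb2 had 111 and 25.2 in day 7 cells, against 29.6 and 12.2 in ESC. The 2 day 7 arrays differed widely from each other for Zeb2, and its difference of 1.01 ± 0.53 (adjusted p = 0.373) was 1.48 in array set 1 and 0.55 in array set 2. Twist1 had 72.5 and 31.3 in day 7 cells, against 68.9 and 15.99 in ESC, and Snai1 had 30.9 and 70.5, against 39.0 and 68.1, both with overlapping groups. By probe set, 11 of the 19 lay wholly above ESC and 1 wholly below, where 26.6% and 19.9% of all probe sets did. The fit over probe sets called 0 of the 19 and 0.00% of all probe sets, and 8 of the 19 stood at an unadjusted p under 0.05, against 15.1% of all.

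In day 7 cells against EpiSC-like cells, 4 of the 6 genes (Snai2, Zeb2, Twist1 and Tcf4) lay wholly below the EpiSC-like arrays and Zeb1 lay wholly above them, where 24.5% and 21.3% of all genes did. In the limma fit 0 of the 6 were called, where 0.0385% of all genes were (0.0220% as higher, 0.0165% as lower), and 2 stood at an unadjusted p under 0.05, against 14.1%. Zeb2 had 111 and 25.2 in day 7 cells, against 167 and 171 in EpiSC-like cells, a difference of -1.35 ± 0.53 (adjusted p = 0.329). Snai2 had 56.6 and 70.0 in day 7 cells, against 195 and 116 in EpiSC-like cells, a difference of -1.08 ± 0.29 (adjusted p = 0.189). Twist1 differed by -0.96 ± 0.55 (adjusted p = 0.501). Tcf4 differed by -0.24 ± 0.26 (adjusted p = 0.738) and Zeb1 by 0.21 ± 0.22 (adjusted p = 0.731), both smaller than their standard error. By probe set, 11 of the 19 lay wholly below the EpiSC-like arrays and 2 wholly above, where 20.1% and 22.6% of all probe sets did. The fit over probe sets called 0 of the 19 and 0.00% of all, with 6 of the 19 at an unadjusted p under 0.05, against 11.8% of all. By level, the order was ESC, day 7, EpiSC-like for Snai2, Zeb2, Twist1 and Tcf4, and ESC, EpiSC-like, day 7 for Zeb1. Neighbours in the order that overlapped were ESC and day 7 for Zeb2 and Twist1.

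The genes most like a member in pattern were sought for Zeb1 and Tcf4, the members whose highest group mean reached the median of all genes (7.54 on the log2 scale). Over the 6 arrays the log2 signal of Zeb1 correlated most closely with that of Nuak2 (Pearson r = 0.9951), Map4k5 (0.9942) and Lrp1 (0.9938). Tcf4 correlated most closely with Fam135a (0.9968), Pgm2l1 (0.9962) and Sox4 (0.9949). Sox4, a transcription factor gene, had 10251 and 8161 in EpiSC-like cells, 6674 and 7384 in day 7 cells, and 2810 and 1178 in ESC. These are the highest of many correlations over 6 arrays that share their stages, and they describe only these arrays.

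The partners and inhibitors of Twist1 and Tcf4 were measured with 6 genes, the E proteins Tcf3 and Tcf12 and the inhibitors Id1 to Id4. At day 7 against ESC 2 of the 6 were called, Id1 as lower and Id4 as higher, and the list median was -0.15. At day 3 0 were called by limma (2 at an unadjusted p under 0.05), with a median of 0.03. For this list and those below, the shares of all genes called against ESC were 1.90% at day 3 and 1.04% at day 7. The shares of all genes at an unadjusted p under 0.05 were 16% and 18.3%. Id1, a BMP-responsive gene, fell to 130 and 248 in day 7 cells, against 2148 and 2108 in ESC, a difference of -3.45 ± 0.40 (adjusted p = 0.0291). At day 3 it stood between, with 487 and 887, a difference of -1.67 ± 0.40 from ESC (adjusted p = 0.101). Id4, an inhibitor gene of neural progenitors, rose to 2640 and 2532 in day 7 cells, against 704 and 529 in ESC, a difference of 2.05 ± 0.24 (adjusted p = 0.0319). At day 3 Id4 had 544 and 504, overlapping ESC. Tcf12 had 3481 and 3152 in EpiSC-like cells and 3696 and 3468 in day 7 cells, against 1563 and 1118 in ESC. Those differences from ESC were 1.31 ± 0.26 (adjusted p = 0.0619) and 1.43 ± 0.26 (adjusted p = 0.0622). Tcf3 had 1876 and 1708 in EpiSC-like cells, against 1481 and 1234 in ESC, a difference of 0.40 ± 0.28.

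**Figure D3:**
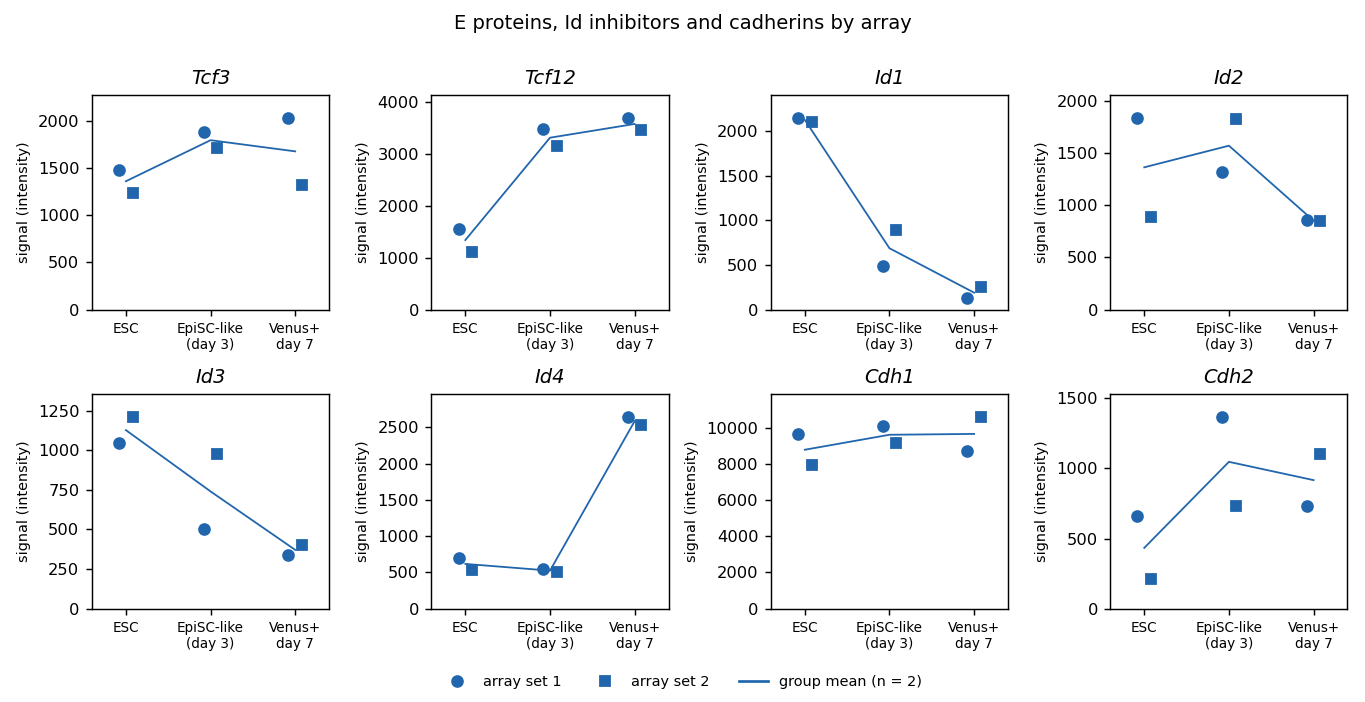
Signal (intensity, linear axes from 0) of the E proteins Tcf3 and Tcf12, the inhibitors Id1 to Id4, and the cadherins Cdh1 and Cdh2 on each of the 6 arrays by group. Circles are array set 1, squares array set 2, and lines join the means of 2 arrays. Id1 is lower and Id4 higher on both day 7 arrays than on any other array, while the Cdh1 groups overlap.

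The epithelial side was described by 28 measured genes of junctions and epithelial identity, of which limma called 0 at day 3 and 0 at day 7 against ESC, with 8 and 4 at an unadjusted p under 0.05. Their median differences were 0.09 and 0.26. Cdh1 (E-cadherin), the classic target of Snail and Zeb proteins, had 10071 and 9138 in EpiSC-like cells and 8725 and 10576 in day 7 cells, against 9629 and 7926 in ESC. Its groups overlapped, and its differences from ESC were 0.14 ± 0.24 at both stages (adjusted p = 0.860 and 0.812). Epcam, with the 2 E-boxes shown above, had 5164 and 7661 in EpiSC-like cells, against 4906 and 5557 in ESC, a difference of 0.27 ± 0.27 (adjusted p = 0.717). Spint2, a protease inhibitor of epithelial surfaces, had 4008 and 3579 in EpiSC-like cells, against 5684 and 7117 in ESC, a difference of -0.75 ± 0.26 (adjusted p = 0.222). Cdh2 (N-cadherin), added after its values were seen, had 1365 and 728 in EpiSC-like cells, against 657 and 209 in ESC, a difference of 1.38 ± 0.57 (adjusted p = 0.306).

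Among 12 transcription and splicing regulators listed as opposing EMT, 2 fell at day 3 and 1 at day 7 against ESC, and 0 rose. The list medians were -0.37 and -0.40. Klf4 fell to 1413 and 450 in EpiSC-like cells, against 8870 and 7622 in ESC, a difference of -3.34 ± 0.55 (adjusted p = 0.0448). Klf5 fell to 851 and 768 in EpiSC-like cells, against 3511 and 7338 in ESC, a difference of -2.63 ± 0.37 (adjusted p = 0.0318), and at day 7 its difference was -2.36 ± 0.37 (adjusted p = 0.0495). With the mean over its 3 probe sets Klf5 differed by -1.42 at day 3 (adjusted p = 0.0733) and -1.07 at day 7 (adjusted p = 0.138), so neither passed. Klf4 and Klf5 are also known as genes of naive pluripotency. Zfp42, which the list holds too, is known as a gene of naive pluripotency. The other genes of that list, among them the Grhl, Ovol and Esrp families, were not called. At an unadjusted limma p under 0.05 stood 6 of the 12 at day 3 and 4 at day 7. At day 3 2 of the 12 had differences above 0, the larger being that of Esrp1. It had 1993 and 2355 in EpiSC-like cells, against 1230 and 1207 in ESC, a difference of 0.82 ± 0.23 (limma adjusted p = 0.153).

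Of 21 measured mesenchymal targets 3 rose at day 3 and 1 at day 7 against ESC, and 0 fell, with medians of 0.42 and 0.17. Tagln, which encodes the actin-binding protein transgelin, rose to 327 and 835 in EpiSC-like cells, against 75.2 and 28.6 in ESC, a difference of 3.08 ± 0.54 (adjusted p = 0.0492). On day 7 it had 13.7 and 29.1. Col1a2, a collagen I chain, rose to 233 and 218 in EpiSC-like cells, against 27.3 and 67.8 in ESC, a difference of 2.00 ± 0.34 (adjusted p = 0.0474), and had 49.7 and 43.4 on day 7. Cdh11, a mesenchymal cadherin, was dim throughout, at 34.0 and 34.9 in EpiSC-like cells, against 6.34 and 1.73 in ESC. Its call at 1.34 ± 0.23 (adjusted p = 0.0492) was made in 0 of 15 other settings, and with the mean over its 2 probe sets the difference was 0.66 (adjusted p = 0.331). For Col1a2 that mean gave 1.38 (adjusted p = 0.0418). Spock1, a proteoglycan gene, rose to 92.0 and 95.3 in day 7 cells, against 9.48 and 21.2 in ESC, a difference of 1.83 ± 0.29 (adjusted p = 0.0497). Its other probe set had 33.6 and 240 in day 7 cells, against 19.7 and 24.4 in ESC. With the mean over its 2 probe sets Spock1 differed by 1.70 and did not pass (limma adjusted p = 0.104). Vim (vimentin), the usual mesenchymal filament marker, had 5552 and 2724 in EpiSC-like cells, against 10360 and 6937 in ESC, a difference of -1.12 ± 0.40 (adjusted p = 0.235). Fn1 (fibronectin) had 5844 and 5397 in EpiSC-like cells, against 6823 and 11496 in ESC, a difference of -0.66 ± 0.31 (adjusted p = 0.372). Vim and Fn1 were thus lower on both EpiSC-like arrays than on both ESC arrays, without passing the test. Acta2 and Mmp2 lay on the other side, also without passing. Acta2 differed from ESC by 1.33 ± 0.32 (limma adjusted p = 0.105) and Mmp2 by 1.19 ± 0.26 (limma adjusted p = 0.0801). At day 3 12 of the 21 had differences above 0. At an unadjusted limma p under 0.05 stood 9 of the 21 at day 3 and 4 at day 7.

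**Figure D4:**
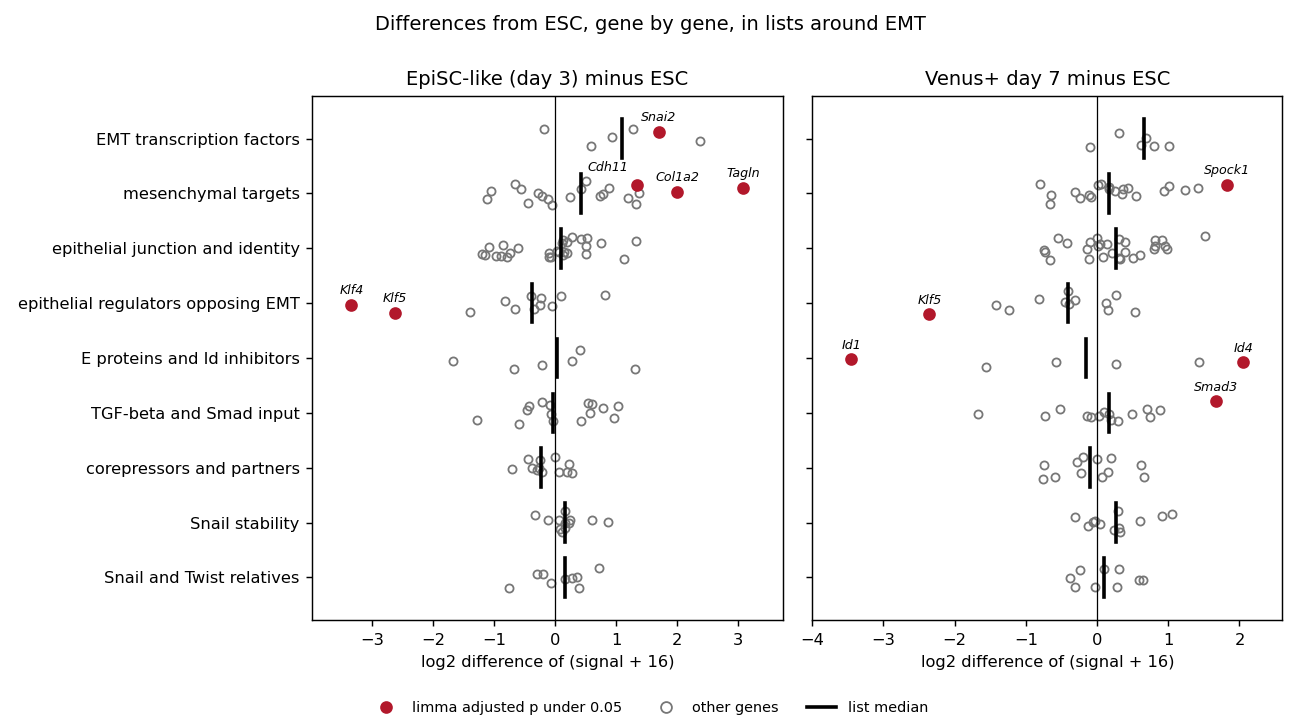
Log2 difference of (signal + 16) from ESC for each measured gene of the 6 EMT transcription factors and of 8 lists around them, EpiSC-like minus ESC on the left and day 7 minus ESC on the right. Filled red points passed a limma adjusted p under 0.05 and open points did not; black bars are list medians. The medians of the 6 factors are 1.10 and 0.66, and the epithelial junction genes centre at 0.09 and 0.26.

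In the TGF-beta and Smad list, 15 measured genes of the pathway that induces Snail and Zeb genes in many epithelia, 1 gene was called at day 7 against ESC. Smad3, a signal transducer of TGF-beta and Nodal, rose to 1246 and 1330 in day 7 cells, against 379 and 407 in ESC, a difference of 1.67 ± 0.22 (adjusted p = 0.0371). It had 689 and 691 in EpiSC-like cells. This is the brightest of 3 Smad3 probe sets. Another had 13.6 and 40.5 in day 7 cells, against 46.2 and 61.4 in ESC, so it lay on the other side, and with the mean over probe sets the difference was 0.49 (adjusted p = 0.311). At day 3 limma called 0 of the 15, with 7 at an unadjusted p under 0.05, and the list medians were -0.04 at day 3 and 0.17 at day 7. Skil, a Smad-binding repressor, had 10529 and 11638 in EpiSC-like cells, against 6867 and 4238 in ESC, a difference of 1.04 ± 0.29 (adjusted p = 0.151).

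The 3 other lists had no called gene in any comparison. The 12 corepressors and partners, such as Ctbp2 and Kdm1a, through which Snail and Zeb proteins repress, had medians of -0.23 and -0.10 at day 3 and day 7 against ESC, with 0 and 3 at an unadjusted p under 0.05. Ctbp2 had 15419 and 16324 in EpiSC-like cells, against 14318 and 17666 in ESC, and Kdm1a had 8718 and 10926, against 8139 and 10782. The 12 measured regulators of Snail protein stability, such as Csnk2a1, had medians of 0.16 and 0.26, with 1 and 3 at an unadjusted p under 0.05. The list named Snail and Twist relatives also holds genes of other families, such as Foxc1, Prrx1 and Hmga2. Its 9 measured genes had medians of 0.16 and 0.09, with 1 and 0 at an unadjusted p under 0.05. Of these 9 Hmga2, a chromatin protein gene upstream of Snail and Twist genes, had 672 and 582 in EpiSC-like cells, against 1334 and 855 in ESC (adjusted p = 0.259). In all, limma called 5 of the 115 measured pathway genes at day 3 and 5 at day 7 against ESC, where 1.90% and 1.04% of all genes were called. Between day 7 and EpiSC-like cells it called 0 of the 115, with 30 at an unadjusted p under 0.05. Of all genes 0.0385% were called in that comparison, with 14.1% at an unadjusted p under 0.05. Calls among these genes were close to the threshold. Over the other settings they were made again in 7 of 17 for Id1 and Id4 at day 7 and for Klf5 at day 3, in 6 of 17 for Smad3 and Klf4, and in 5 of 17 for Tagln and for Klf5 at day 7. Col1a2 was called again in 4 of 16 and Spock1 in 3 of 16, and the direction of each of these calls was the same in every setting.

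Markers of other cell types moved alongside the 6 factors, and their part in the results was not tested. Of 12 neural progenitor genes 4 rose at day 3 against ESC (Fabp7, Sox1, Prom1 and Sox3) and 3 at day 7 (Fabp7, Sox1 and Lhx2), with medians of 1.25 and 1.07. Their summed signal was 27173 to 27373 in EpiSC-like cells and 26622 to 31546 in day 7 cells, against 22733 to 25991 in ESC. Most of this sum was Sox2. Its signals were 16284 and 15215 in EpiSC-like cells and 18018 and 22517 in day 7 cells, against 19160 and 22030 in ESC. Sox1 had 347 and 557 in EpiSC-like cells and 205 and 135 in day 7 cells, against 11.7 and 5.70 in ESC. Of 16 neural crest genes 0 were called at day 3 (6 at an unadjusted p under 0.05) and 2 rose at day 7, Zic1 by 3.00 ± 0.39 (adjusted p = 0.0371) and Pax3 by 2.36 ± 0.34 (adjusted p = 0.0424). Both also mark dorsal neural tissue. The summed neural crest signal was 2807 to 3056 in EpiSC-like cells and 3547 to 3681 in day 7 cells, against 2703 to 2926 in ESC. At day 7 against ESC the list median was 0.40, and 11 of the 16 genes had differences above 0. At an unadjusted limma p under 0.05 stood 6 of the 16. Sox10, a defining crest gene, had at most 68.5 on any array. The summed signal of 15 primitive streak and mesoderm genes was 1245 to 1607 in EpiSC-like cells and 1316 to 1417 in day 7 cells, against 696 to 840 in ESC. Of these genes limma called 0 at either stage (4 and 6 at an unadjusted p under 0.05). The list medians were 0.16 at day 3 and 0.38 at day 7, with 9 of the 15 above 0 at each stage. Fgf8 and Eomes made up much of the day 3 sum. Fgf8 had 160 and 751 in EpiSC-like cells, against 25.6 and 5.82 in ESC. Eomes had 508 and 243 in EpiSC-like cells, against 179 and 159 in ESC. The 12 fibroblast genes summed to 849 to 867 in EpiSC-like cells and 735 to 884 in day 7 cells, against 540 to 567 in ESC. Col1a2 was the 1 called gene of this list, at day 3. The list medians were 0.31 at day 3 and -0.03 at day 7, with 7 and 6 of the 12 above 0. Pdgfrb was a large part of the day 7 sum, with 300 and 253 in day 7 cells, against 59.0 and 11.1 in ESC. Col1a1, the partner chain of Col1a2, was dim, at 58.3 and 48.5 in EpiSC-like cells, against 29.7 and 19.2 in ESC. Its EpiSC-like arrays lay above its ESC arrays, with a difference of 0.79 ± 0.26 (limma adjusted p = 0.206). On day 7 it had 16.9 and 25.5. The 12 endoderm genes summed to 1058 to 1279 in EpiSC-like cells, against 2127 to 2409 in ESC. Lama1, a large part of the ESC sum, had 173 and 80.0 in EpiSC-like cells, against 861 and 1365 in ESC. The list median at day 3 was -0.04, with 6 of 12 genes above 0. In day 7 cells the 12 genes summed to 3426 in array set 1 and 14183 in array set 2, so the 2 day 7 arrays differed most from each other in this list. Against ESC 0 of 12 were called at day 7 (8 at an unadjusted p under 0.05).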

How the data were processed

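RNA of sorted cells was measured on 6 arrays, grouped by their labels. The authors deposited linear intensities, 1 signal per probe set. The submitters' processing notes name Affymetrix Expression Console (version 1), and no source used here gives its role or algorithm. The values had been scaled to a common trimmed mean (2% removed at each end). Detection calls were not used here. The number of arrays limits the precision.

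Of 45101 probe sets, 64 controls were left out. The platform annotation gave 1 gene to 34945 probe sets, several to 932 and none to 9211 (controls included). RefSeq (GRCm38.p6) held 34741 of the 34945 by gene identifier and changed 0 symbols. The probe set with the highest mean log2(signal + 16) stands for its gene, which gave 18194 genes; all probe sets of the 6 factors are described, and other genes by this probe set unless stated. One limma fit (3.58.1, R 4.3.3) took the 6 arrays and 3 group means, no block and no filter (3 residual degrees of freedom), and p-values were adjusted by Benjamini-Hochberg over all genes, or over all probe sets for probe set values. The script was tested on simulated data.

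The 6 factors, 8 pathway lists and 9 cell type lists were chosen with earlier results of these data known. Of the list entries 11 had no probe set with 1 gene and were not analysed here. Named genes are the 6 factors, up to 4 called genes of each list and comparison or, with none called, up to 3 of the brightest, and 3 genes most like a factor. Cdh2, Id3, Fgf5, Sox10, Col1a1, Sox2, Lama1, Fgf8, Eomes, Pdgfrb, Esrp1, Acta2 and Mmp2, and the called genes' values in other groups, were added after their values were seen. Alternatives changed the pseudocount (1, 64), the filter (25th percentile, median), the scaling (median centring, quantile), the block, the probe set rule, the arrays in the fit, the eBayes trend, and left out each array in turn.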

Additional observations from a re-analysis of the deposited data

How the results depend on the processing

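Of the 6 factors, 1 was called between EpiSC-like cells and ESC. This count was 0 with a pseudocount of 1, with median centring, with quantile normalization, when all probe sets were tested, and when only the 2 groups were fitted. It was 2 with an eBayes trend (Snai2 and Tcf4), and 0 to 0 without each array in turn. With genes under the median level left out it was 1, but the gene was Tcf4, as Snai2 was not tested there. With the mean over probe sets it was also 1, but the gene was Zeb2 and Snai2 was not called. Between day 7 cells and ESC the count was 0, and 1 (Zeb1) when genes under the median level were left out. Of the probe sets, 1 was called at day 3 under that filter. Arrays with the same replicate number deviated together at r = 0.283, 0.079 and 0.097 between the groups. Whether the numbers pair the samples is not labelled. These correlations alone do not decide it, since the highest signal also followed the numbers. With a replicate block 0 of the 6 were called at day 3, and 0 and 0 of the pathway genes at day 3 and day 7. Against ESC the block put 3369 (day 3) and 3920 (day 7) genes at an unadjusted limma p under 0.05. Without it these counts were 2904 and 3331.

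The 5 pathway genes called at day 3 became 0 (pseudocount 1), 8 (pseudocount 64), 15 (median filter), 2 (median centring), 1 (quantile), 0 (all probe sets), 0 (2 groups), 11 (trend) and 0 to 1 without each array. The 5 called at day 7 against ESC became 0, 8 and 9 in the first 3 of these settings, 3 (quantile), 2 (mean over probe sets), 0 (all probe sets), 0 (2 groups), 10 (trend) and 0 to 0 without each array. The 0 between day 7 and EpiSC-like cells became 3 (pseudocount 64), 2 (25th percentile), 6 (median filter) and 2 (trend).

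Over all genes the 345 and 189 calls against ESC became 0 and 0 with a pseudocount of 1 or a replicate block, 672 and 679 with a pseudocount of 64, and 771 and 862 with the median filter. Median centring moved the median of all genes by -0.15 at day 3 and -0.21 at day 7, and the share of calls that were higher to 55.3% and 53.1%, against 69.3% and 72.5% in the reported fit. Under that centring Cdh1 was -0.016 at day 3, -0.074 at day 7 against ESC and -0.058 at day 7 against EpiSC-like cells, the last also -0.029 with quantile normalization. Col1a2 at day 7 against ESC was -0.159 and -0.052 in these 2 scalings.

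Without 1 array, directions changed among values that had passed no test. Snai1 ran from -0.48 to 0.13 at day 3, from -0.54 to 0.35 at day 7 against ESC, and from -0.36 to 0.52 between day 7 and EpiSC-like cells. Twist1 at day 7 against ESC ran from -0.39 to 1.02 and Col1a2 from -0.42 to 0.53. Cdh1 ran from -0.005 to 0.28 at day 3, from -0.003 to 0.28 at day 7 against ESC and from -0.137 to 0.14 between day 7 and EpiSC-like cells. In that last comparison Cdh2 ran from -0.60 to 0.30 and Vim from -0.042 to 0.98. The cause of these changes was not tested.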

Other observations

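Of 11 measured stage markers, 3 rose (Fgf5, Pou3f1 and Sox1) and 1 fell (Klf4) in EpiSC-like cells against ESC, and 2 rose (Fgf5 and Sox1) in day 7 cells against ESC. Pou3f1, a POU factor gene of the primed epiblast and neural ectoderm, rose to 5624 and 5212 in EpiSC-like cells, against 263 and 89.7 in ESC, by 4.98 ± 0.55 on the log2 scale (limma adjusted p = 0.0200). Stmn2, a microtubule regulator of neurons that sits in the neuron list of 11 measured genes, fell to 1472 and 1116 in EpiSC-like cells, against 8317 and 13364 in ESC, a log2 difference of -3.02 ± 0.37 (limma adjusted p = 0.0241). At day 7 against ESC Stmn2 differed by -2.45 ± 0.37 (adjusted p = 0.0462). Nhlh2, a helix-loop-helix gene of young neurons, rose to 206 and 986 in day 7 cells, against 1.78 and 1.96 in ESC, by 4.72 ± 0.70 (adjusted p = 0.0451). The blood and endothelium list of 9 and the trophoblast list of 8 measured genes had 0 called by limma in either comparison with ESC, with 2 and 3 at an unadjusted p under 0.05 at day 3 and 3 and 2 at day 7.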
